A study of Mus musculus with 24 samples.

Results

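Complex I genes are described here in livers of mice given dichloroacetic acid (DCA) in the drinking water. The members are the 45 genes of the deposited expression table whose symbol begins with Nduf, of 15582 genes used. They comprise 36 genes for subunits of the enzyme, 7 Ndufaf genes for assembly factors, and Ndufa4 with its paralogue Ndufa4l2. Male B6C3F1 mice, 4 weeks old, drank water with DCA at 0, 1, 2 or 3.5 g/L for 6 days, and each dose has 6 libraries of frozen liver from mixed lobes. The 0 g/L mice are the controls. Strain, sex and age are the same at every dose. DCA is a by-product of water chlorination, known to inhibit the kinases that switch off pyruvate dehydrogenase and to cause liver tumours in mice. The question put by the design is how the liver transcriptome differs between doses after this short exposure.

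Complex I, or NADH dehydrogenase, is the entry point of the mitochondrial respiratory chain. It takes electrons from NADH, passes them along iron-sulfur clusters to ubiquinone, and pumps protons across the inner membrane. The N module oxidises NADH, the Q module reduces ubiquinone, and the membrane arm carries the proton pumps. Core subunits carry out the chemistry and accessory subunits surround them. The core subunits of the membrane arm are made from mitochondrial DNA, and their genes are not analysed here. Assembly factors help to build the complex and are absent from the finished enzyme.

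Nearly all nuclear subunit genes were higher in the livers of mice on 2 or 3.5 g/L DCA. Of the 7 assembly factor genes 3 were, a share close to that of all tested genes. RPKM is a read count scaled for gene length and library size, and a fold change is on the log2(RPKM + 1) scale, which understates the change of low genes. A gene was called where limma gave a Benjamini-Hochberg adjusted p under 0.05 over the 6540 genes tested, with a minimum of 0.5 RPKM in 6 libraries. Of the members, 44 passed that minimum and Ndufa4l2 did not. At 1 g/L 11 of 36 subunit genes rose, against 8.35% of all tested genes. At 2 g/L 33 of 36 rose, against 41.9% of all, and at 3.5 g/L 36 of 36 rose, against 38.6% of all. From the lowest to the highest dose, the median subunit fold was 0.21, 0.44 and 0.47, where the median over all tested genes was 0.05, 0.12 and 0.10. Of the 7 assembly factor genes, 1, 3 and 3 rose at 1, 2 and 3.5 g/L, or 14.3, 42.9 and 42.9%, against 8.35, 41.9 and 38.6% of all. At 2 and 3.5 g/L these genes were thus called about as often as tested genes at large. Their median fold was 0.10, 0.17 and 0.16. Limma called 0 Nduf genes lower at any dose, where 3.03, 10 and 12.9% of all tested genes were lower, and 0 were lower at an unadjusted p under 0.05, where 7.03, 11.6 and 14.7% of all were. The 3 doses share the same 6 controls.

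Sequences before and just after the gene starts were taken from RefSeq (GRCm38.p6, 250 bases before to 50 after the start) for 39 of the 45 members, of which 32 are subunit genes. They are shown because the motif of the factor YY1 was in 12 of the 32 subunit promoters, the highest share of the 7 motifs searched. The core of the binding motif of YY1, a zinc finger factor known to act at respiratory genes, was searched as AANATGGC on both strands. It occurred in 12 of 32 subunit promoters (37.5%), against 6.96% of 27025 promoter genes and 10.1% of the 4907 tested genes with a promoter. The 13 matches are printed with up to 10 bases on each side, on the strand of the gene, with the match in capitals; the position is that of the first matched base, counted from the start. In Ndufb10 the match lies on the opposite strand.
Ndufa3, chr7:3617385-3617412, plus strand, position 23: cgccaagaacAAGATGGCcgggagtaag
Ndufa9, chr6:126849098-126849125, minus strand, position 30: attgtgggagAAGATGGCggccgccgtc
Ndufb8, chr19:44555393-44555414, minus strand, position 39: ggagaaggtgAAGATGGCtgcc
Ndufc1, chr3:51408916-51408943, minus strand, position 23: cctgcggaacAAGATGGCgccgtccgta
Ndufs4, chr13:114388045-114388069, minus strand, position 36: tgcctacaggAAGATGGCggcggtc
Ndufs6, chr13:73328433-73328459, minus strand, position 34: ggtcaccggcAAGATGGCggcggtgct
Ndufs7, chr10:80249463-80249490, plus strand, position 25: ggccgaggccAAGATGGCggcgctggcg
Ndufa7, chr17:33824617-33824644, plus strand, position -18: gagcggaaggAATATGGCgtccgctact
Ndufb5, chr3:32736980-32737007, plus strand, position -73: gccctcactcAATATGGCctcctctagc
Ndufb5, chr3:32736828-32736855, plus strand, position -225: gcccttactaAACATGGCcgctcccacg
Ndufs8, chr19:3912922-3912949, minus strand, position -165: tctctgatacAACATGGCagctccctac
Ndufb10, chr17:24724604-24724631, minus strand, position -198: actcttccaaGCCATGTTcaccatattc
Ndufb11, chrX:20617813-20617840, minus strand, position -211: tcaccaacacAAAATGGCgacgagaaga

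Of the 13 matches, 7 lay after the start and 6 before it, and those after the start all read AAGATGGC. The ATG inside the motif can also be a start codon, and whether it is one was not tested. The 12 subunit genes with a match had a median fold of 0.50 at 3.5 g/L (0.21 to 0.81), and the 20 without had 0.45 (0.15 to 0.73). The ranges of both sets overlapped widely, and the difference was not tested. Other motifs were searched on both strands in the same windows. CCAAT was in 31.2% of subunit promoters, against 43.8% of promoters of tested genes and 41.1% of all promoters. The ETS core CCGGAAG was in 12.5%, against 20.1% and 9.93%. The NRF1 core GCATGCGC was in 9.38%, against 5.81% and 3.05%. The longer NRF1 palindrome, which contains it, was in 3.12%, or 1 gene, against 2.24% and 1.07%. The ERR motif TNAAGGTCA was also in 1 gene, against 0.937% and 1.43%, and the DR1 repeat of nuclear receptors in 0 of 32, against 0.0815% and 0.0481%. A match describes letters and is no evidence of binding.

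Whole windows are given for the genes with the largest fold at 3.5 g/L and at 2 g/L. Ndufb8 lies at chr19:44555393-44555692 on the minus strand, with the YY1 motif in capitals, and Ndufa12 at chr10:94198785-94199084 on the plus strand, where none of the motifs searched occurred.
Ndufb8: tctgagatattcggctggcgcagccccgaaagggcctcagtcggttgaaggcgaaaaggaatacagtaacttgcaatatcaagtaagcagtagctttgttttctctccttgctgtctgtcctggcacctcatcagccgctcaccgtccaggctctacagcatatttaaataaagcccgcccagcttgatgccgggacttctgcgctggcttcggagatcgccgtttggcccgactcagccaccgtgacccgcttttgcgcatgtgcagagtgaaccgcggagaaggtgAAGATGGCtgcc
Ndufa12: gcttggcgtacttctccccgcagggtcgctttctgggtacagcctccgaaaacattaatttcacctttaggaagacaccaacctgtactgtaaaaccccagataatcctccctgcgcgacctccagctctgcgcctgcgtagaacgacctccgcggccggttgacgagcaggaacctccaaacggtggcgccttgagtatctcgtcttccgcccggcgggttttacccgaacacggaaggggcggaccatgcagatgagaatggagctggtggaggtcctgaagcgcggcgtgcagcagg

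Levels in untreated liver differed widely between members. Per length, mean subunit levels in the controls lay between 5.34 RPKM for Ndufa11 and 92.4 RPKM for Ndufb9, both of the membrane arm. Assembly factor genes lay between 0.669 RPKM for Ndufaf5 and 7.79 RPKM for Ndufaf1, so that Ndufaf1 was above the lowest subunit gene. Ndufa4 was the highest member at 149 RPKM and Ndufa4l2 the lowest at 0.295 RPKM. Steps in the low RPKM values placed the libraries at about 27100000 to 32300000 reads, with relative depths of 0.951 to 1.131. At that depth Ndufa4 rested on 1844 to 3587 reads a library, Ndufaf5 on 44 to 103 and Ndufa4l2 on 3 to 15. The coefficient of variation within a dose had a median of 7.59% over subunit genes and 9.92% over assembly factor genes in the controls.

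**Figure D1:**
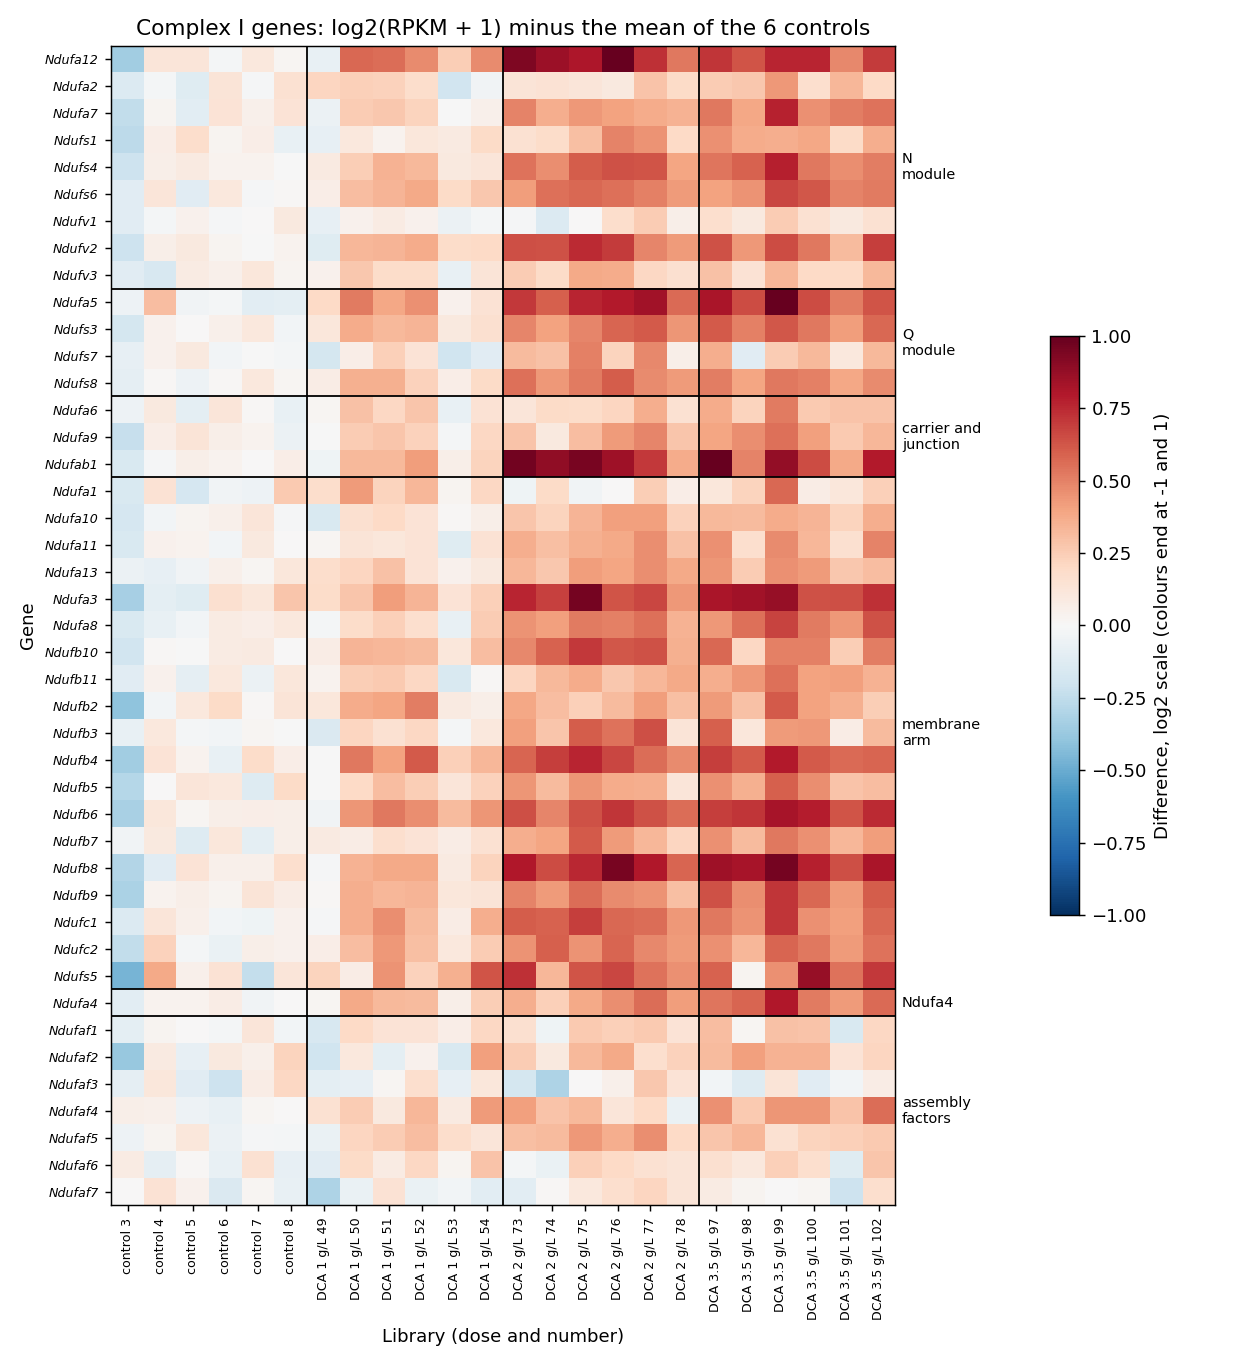
Each row is one of 43 tested Nduf genes and each column a library; colour gives log2(RPKM + 1) minus the mean of the 6 controls, with rows grouped by module and columns ordered by dose. Subunit rows are red in nearly every library at 2 and 3.5 g/L, control 3 is blue in most subunit rows, and rows of assembly factors are paler.

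Summed over the 36 subunit genes, expression at 2 and 3.5 g/L lay above that in every control and 1 g/L library, and these higher doses overlapped each other. The sum was 1020 to 1230 RPKM in the controls, 1200 to 1460 RPKM at 1 g/L, 1480 to 1690 RPKM at 2 g/L and 1540 to 1820 RPKM at 3.5 g/L. At 1 g/L, libraries 49 and 53 fell within the range of the controls and the other 4 lay above it. As a share of all RPKM in the table, the subunit genes took 0.723 to 0.778% in controls, 0.846 to 0.923% at 1 g/L, 0.945 to 1.09% at 2 g/L and 1.05 to 1.13% at 3.5 g/L. By this share no DCA library overlapped the controls. The 7 assembly factor genes summed to 22.5 to 25.8 RPKM, 21.8 to 29.6 RPKM, 24.5 to 29.7 RPKM and 24.2 to 30.2 RPKM in the same order, and these ranges overlapped at every dose. The overlap with the controls came from library 74 alone at 2 g/L and from library 101 alone at 3.5 g/L. Mean sums were 24.2, 26, 27.8 and 28.4 RPKM in order of dose.

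**Figure D2:**
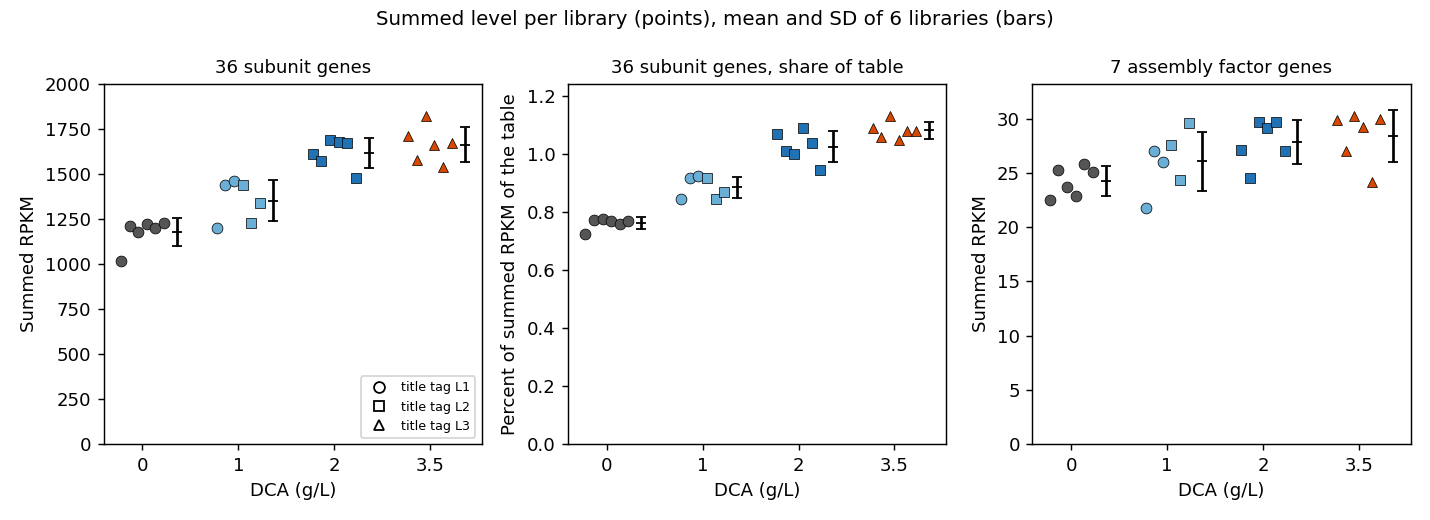
Points are libraries and the bars give the mean and SD of 6 libraries at each dose (x axis, g/L); the y axes give summed RPKM or percent of the table's RPKM, and the marker shape gives the tag in the sample title. The subunit share of all 18 DCA libraries lies above that of all 6 controls. The sums of assembly factor genes overlap those of the controls, through a single library each at 2 and 3.5 g/L.

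A tag in the sample titles, L1, L2 or L3, whose meaning is not stated, runs with dose. All controls carry L1 and all 2 g/L libraries L2, the 1 g/L libraries carry L1 or L2 (3 each), and all 3.5 g/L libraries carry L3, so that tag and dose cannot be told apart at 3.5 g/L. The controls and the 2 g/L libraries share no tag either. A tag term for 2 g/L therefore rests on the L1 and L2 libraries at 1 g/L. It also assumes that the tag has the same effect at every dose. Within 1 g/L the subunit sum was 1200 to 1460 RPKM for L1 and 1230 to 1440 RPKM for L2. Within tag L1, the subunit share was 0.847, 0.917 and 0.923% in the 3 DCA livers, above the highest control share of 0.778%. With the tag as a term, the median subunit fold at 1 and 2 g/L was 0.23 and 0.47, with standard errors 1.21 and 1.72 times as large. Then 2 of 36 subunit genes were called at 1 g/L, against 1.22% of all genes, and 26 of 36 at 2 g/L, against 10.6%. Within L1 alone none of 36 was called at 1 g/L, where 0.183% of all genes were.

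The N module has 9 genes, and 3, 7 and 9 of them rose at 1, 2 and 3.5 g/L, against 8.35, 41.9 and 38.6% of all tested genes. For single genes, sets of 3 values are the lowest, median and highest of 6 libraries. Ndufs4, an accessory subunit needed for a stable N module, had 10.6, 12.7 and 13.2 RPKM in the controls, 13.3, 14.2 and 16.0 at 1 g/L, 16.6, 18.9 and 19.8 at 2 g/L, and 17.5, 18.3 and 21.9 at 3.5 g/L. Every DCA library exceeded every control, at all 3 doses. At 1 g/L the gap was narrow, with 13.26 RPKM in library 49 and 13.25 RPKM in control 5. Ndufs4 was the single subunit gene of 36 to be so separated at 1 g/L, a share close to the 3.01% of all tested genes. Its fold was 0.21 ± 0.06 (SE) at 1 g/L with limma adjusted p 0.0388, 0.55 ± 0.06 at 2 g/L (3.86e-07) and 0.57 ± 0.06 at 3.5 g/L (1.11e-07). The call at 1 g/L was lost without control 3 (fold 0.16) and in other alternatives.

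Ndufs6, a zinc-binding accessory subunit, had 26.0, 28.2 and 30.8 RPKM in the controls, 29.6, 34.7 and 37.0 at 1 g/L, 38.0, 41.0 and 42.4 at 2 g/L, and 37.7, 40.5 and 45.4 at 3.5 g/L. The 2 and 3.5 g/L livers lay above all controls and close to each other. Its folds were 0.26, 0.50 and 0.53, each ± 0.06, with limma adjusted p 0.00772, 4.98e-07 and 1.34e-07. Ndufa12, an accessory subunit that takes the place of the assembly factor Ndufaf2 late in assembly, had 23.8, 32.0 and 33.3 RPKM in the controls, 29.0, 42.8 and 46.1 at 1 g/L, 44.6, 55.2 and 61.8 at 2 g/L, and 43.1, 50.5 and 52.6 at 3.5 g/L. Control 3 held its lowest value, and the 2 g/L libraries were the highest group. Its fold of 0.81 ± 0.10 at 2 g/L, a ratio of means of 1.77, was the largest log2 fold of any member at that dose (limma adjusted p 1.00e-06), although Ndufab1 had a larger ratio of means, 1.80. It was 0.38 ± 0.10 at 1 g/L (0.0192; not called without control 3) and 0.68 ± 0.10 at 3.5 g/L (6.59e-06).

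Ndufv1, the core subunit that binds NADH and FMN, had the smallest subunit fold at 2 and 3.5 g/L. It had 39.2, 42.3 and 45.6 RPKM in the controls, 40.0, 42.9 and 44.9 at 1 g/L, 38.5, 43.4 and 50.9 at 2 g/L, and 45.6, 47.3 and 50.7 at 3.5 g/L. Of the 3 doses, only 3.5 g/L was called, with a fold of 0.15 ± 0.06 (limma adjusted p 0.0267), and that call was lost with median-ratio factors (0.01) and quantile normalization (-0.02). At 2 g/L its fold was 0.06 ± 0.06 (0.422), and it became -0.12 and was called lower under quantile normalization (0.0449), where 20% of all genes were, the one such call among members. Its partner Ndufv2, which carries an iron-sulfur cluster, rose by 0.61 at 2 g/L and 0.54 at 3.5 g/L. Ndufs1, the large core subunit that holds several clusters, rose by 0.30 and 0.36 at those doses. The accessory genes Ndufa7 (0.40 and 0.53) and Ndufv3 (0.26 and 0.25) rose at both, and Ndufa2 was called at 3.5 g/L (0.28) and not at 2 g/L (0.16, limma adjusted p 0.0631). With median-ratio factors Ndufv3 was called at neither dose (0.09 and 0.11), Ndufs1 was not called at 2 g/L (0.13) and Ndufa2 was not called at 3.5 g/L (0.13).

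In the Q module, 3, 5 and 5 of 5 genes rose at 1, 2 and 3.5 g/L, against 8.35, 41.9 and 38.6% of all tested genes. All 5 were also higher at 2 g/L than at 1 g/L, against 22.7% of all. Ndufs8, a core subunit with iron-sulfur clusters, had 21.8, 23.4 and 25 RPKM in the controls, 24.4, 27 and 30.0 at 1 g/L, 31.5, 33.2 and 35.8 at 2 g/L, and 30.6, 33.0 and 33.9 at 3.5 g/L. The 2 and 3.5 g/L livers lay above every control and every 1 g/L liver. Its folds were 0.21, 0.50 and 0.47, each ± 0.05, with limma adjusted p 0.0139, 1.44e-07 and 1.73e-07. Ndufs3, a core subunit around which the module starts to assemble, had 32.3, 37.3 and 39.5 RPKM in the controls, 39.3, 43.6 and 47.5 at 1 g/L, 48.7, 51.9 and 56.6 at 2 g/L, and 49.2, 54.3 and 57.0 at 3.5 g/L. Its 2 and 3.5 g/L livers also lay above all others, with folds of 0.23, 0.50 and 0.55.

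Ndufs7, a core subunit that holds the last iron-sulfur cluster before ubiquinone, had nearly equal means at 1 g/L and in the controls, 26.3 and 26.2 RPKM. It rose by 0.31 at 2 g/L and 0.21 at 3.5 g/L, and at 3.5 g/L its limma adjusted p of 0.0486 was near the threshold. Both calls were lost with median-ratio factors (0.15 and 0.07), and that at 2 g/L also with the tag term (0.42, limma adjusted p 0.0664). Ndufa5, an accessory gene of the module, had folds of 0.29, 0.71 and 0.72 and was called at all 3 doses.

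The largest group, the membrane arm, has 19 genes. At the lowest dose 5 rose, at 2 g/L 18 and at the highest all 19, against 8.35, 41.9 and 38.6% of all tested genes. Ndufb8, an accessory subunit of the distal arm, had 42.3, 53.8 and 58.7 RPKM in the controls, 51.7, 63.8 and 67.9 at 1 g/L, 78.4, 89.8 and 102 at 2 g/L, and 82.0, 92.8 and 102 at 3.5 g/L. The 2 higher doses lay wholly above the controls and 1 g/L, with no gap between them. Its fold was 0.76 ± 0.08 at 2 g/L (limma adjusted p 1.73e-07) and 0.81 ± 0.08 at 3.5 g/L (2.69e-08), a ratio of means of 1.76 and the largest fold of any member at that dose. At 1 g/L it was 0.24 ± 0.08 and not called (0.0661).

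Ndufb6, another accessory subunit of the arm, had 21.0, 27.6 and 28.7 RPKM in the controls, 25.8, 36.3 and 38.6 at 1 g/L, 37.6, 41.7 and 44.0 at 2 g/L, and 41.4, 44.6 and 47.7 at 3.5 g/L. It rose at every dose, by 0.36, 0.61 and 0.73, each ± 0.08 (limma adjusted p 0.00632, 1.79e-06 and 7.84e-08). Ndufa8, which faces the intermembrane space and is held by disulfide bonds, had 22.5, 25.6 and 27.2 RPKM in the controls, 23.9, 28.6 and 30.2 at 1 g/L, 32.4, 35.4 and 37.5 at 2 g/L, and 34.4, 37.0 and 40.8 at 3.5 g/L. Its folds were 0.12, 0.46 and 0.54, and the first was not called (limma adjusted p 0.204).

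The other 16 membrane arm genes were Ndufa1, Ndufa3, Ndufa10, Ndufa11, Ndufa13, Ndufb2, Ndufb3, Ndufb4, Ndufb5, Ndufb7, Ndufb9, Ndufb10, Ndufb11, Ndufc1, Ndufc2 and Ndufs5. Their folds at 3.5 g/L lay between 0.22 for Ndufa1 and 0.76 for Ndufa3. Ndufb4, Ndufb10, Ndufc1 and Ndufc2 rose at all 3 doses, with folds of 0.35, 0.25, 0.26 and 0.24 at 1 g/L. Ndufa1, a small subunit encoded on the X chromosome, was the one gene of the arm not called at 2 g/L, at 35.7 ± 3.15 RPKM against 34.0 ± 4.19 RPKM in controls (SD, n = 6 each). Its mean was 40 RPKM at 1 g/L and 39.9 RPKM at 3.5 g/L, both above the mean at 2 g/L. The fold of 0.23 at 1 g/L was not called (limma adjusted p 0.0831). At 3.5 g/L its call (limma adjusted p 0.0359) went with a library at 50.7 RPKM, where the next was 39.9 RPKM. Ndufs5 varied widely within a dose, at 22.6 to 41.5 RPKM at 3.5 g/L and 15.8 to 29.2 RPKM in controls.

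Among the genes at the junction of the arms and the acyl carrier, none of 3 was called at 1 g/L and all 3 rose at 2 and 3.5 g/L. Shares of all tested genes called higher were 8.35, 41.9 and 38.6% at the 3 doses. Ndufab1, the mitochondrial acyl carrier protein, also serves fatty acid and lipoic acid synthesis in the matrix. It had 10.4, 11.8 and 12.2 RPKM in the controls, 11.2, 14.2 and 15.8 at 1 g/L, 15.3, 22 and 23.6 at 2 g/L, and 15.4, 19.9 and 27.4 at 3.5 g/L. The controls were tight and the 2 higher doses spread widely, without overlap with the controls. Its fold was 0.79 ± 0.11 at 2 g/L and 0.73 ± 0.11 at 3.5 g/L (limma adjusted p 5.04e-06 and 9.73e-06), and the step of 0.57 between 2 and 1 g/L was the largest of any member.

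Ndufa9, which holds a nucleotide near the ubiquinone site, had 26.6, 32.4 and 34.3 RPKM in the controls, 30.9, 36.6 and 38.2 at 1 g/L, 33.6, 38.7 and 44.5 at 2 g/L, and 37.8, 41.8 and 46.3 at 3.5 g/L. Ndufa6, a LYR protein that binds the acyl carrier, had 57.8, 61.0 and 67.4 RPKM in the controls, 58.9, 70.1 and 76.0 at 1 g/L, 67.4, 70.5 and 79.8 at 2 g/L, and 72.4, 75.7 and 89.2 at 3.5 g/L. Ndufa9 rose by 0.31 and 0.40 at 2 and 3.5 g/L, and Ndufa6 by 0.20 and 0.32. Both calls at 2 g/L were lost with median-ratio factors, at folds of 0.14 and 0.03.

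**Figure D3:**
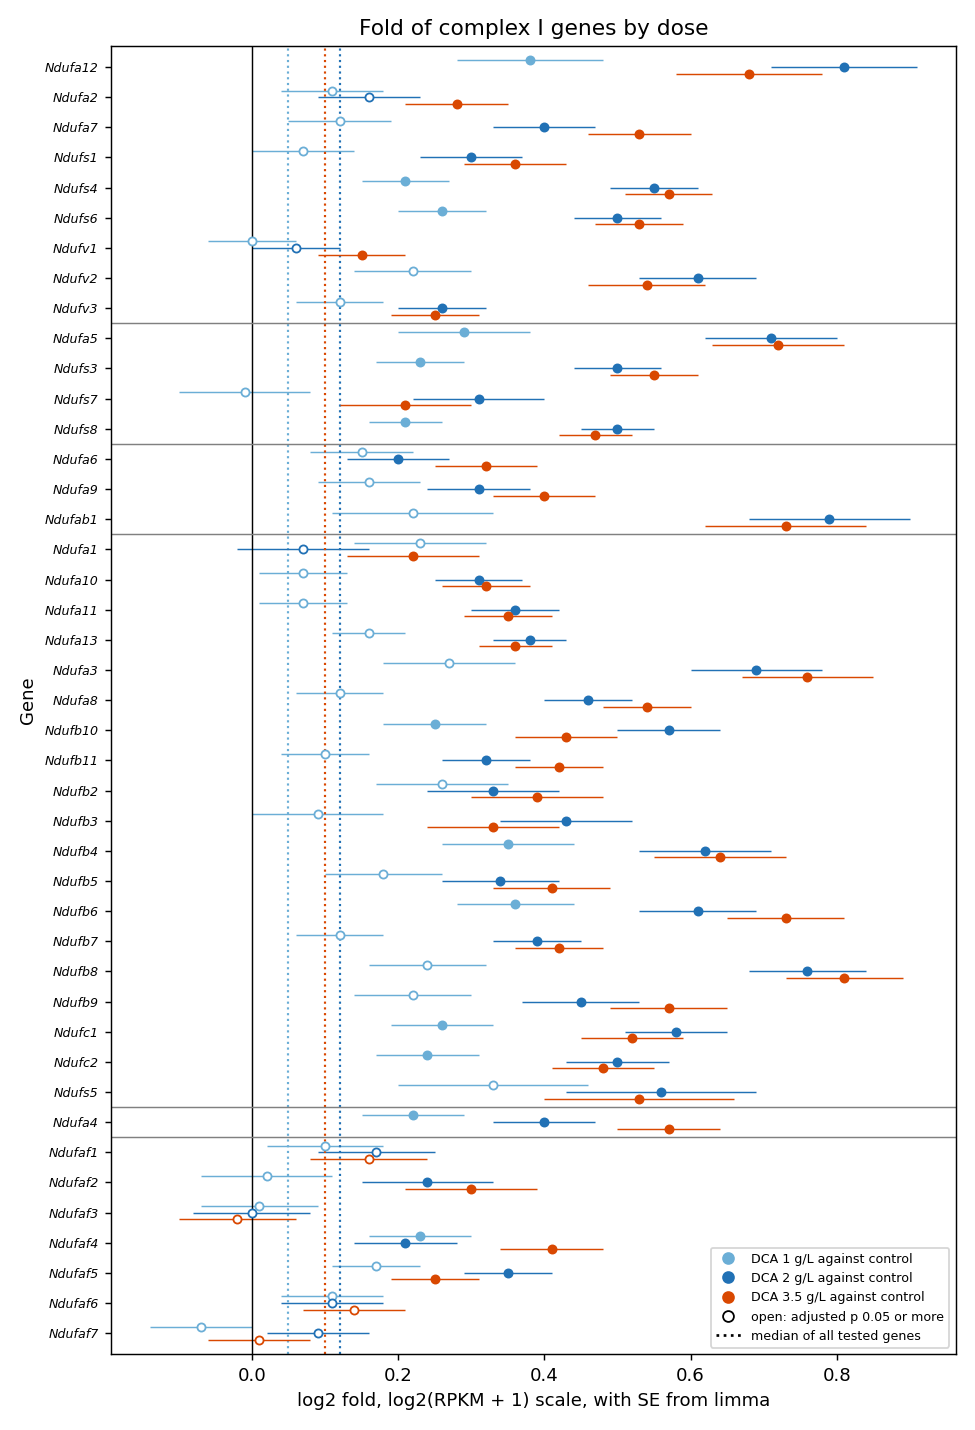
Points give the log2 fold of 43 tested Nduf genes against control with its SE, for 1, 2 and 3.5 g/L; filled points are called and dotted lines mark the median of all tested genes at that dose. Nearly all subunit points at 2 and 3.5 g/L lie right of the lines, and those of Ndufaf3 and Ndufaf7 sit at or near 0.

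Core and accessory subunits were also counted apart. Of the 7 core genes 2, 6 and 7 rose at 1, 2 and 3.5 g/L, with a median fold of 0.47 at the highest dose. Of the 29 accessory genes 9, 27 and 29 rose, with a median of 0.48. Shares of all tested genes called higher were 8.35, 41.9 and 38.6%. In 11 subunit genes the call held at all 3 doses, in 22 it was made at 2 and 3.5 g/L, and in 3 (Ndufa1, Ndufa2 and Ndufv1) at 3.5 g/L alone. A missing call does not mean that a gene was unchanged at that dose. At an unadjusted limma p under 0.05, 26 of the 44 tested members were higher at 1 g/L, against 21.3% of all tested genes. The groups did not overlap, every DCA library being above every control, in 28 of 36 subunit genes at 2 g/L and 32 of 36 at 3.5 g/L, where 20.2% and 22% of all tested genes did so. Some of these gaps were narrow. Ndufa6 at 2 g/L had 67.41 RPKM in library 73 and 67.38 RPKM in control 6. Ndufv1 at 3.5 g/L had 45.57 RPKM in library 101 and 45.56 RPKM in control 8. Expressed as a ratio of mean RPKM, the median subunit gene stood at 1.16, 1.38 and 1.4 times control, and the median tested gene at 1.05, 1.13 and 1.1 times control.

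The median of all genes itself was above 0, and median-ratio factors, which set it to 0 at every dose, take that shift out. The median subunit fold was then 0.14, 0.27 and 0.33 at 1, 2 and 3.5 g/L. With these factors 26 of 36 subunit genes rose at 2 g/L, where 21.3% of all genes were higher and 21% lower. At 3.5 g/L 30 of 36 rose, where 23.5% of all were higher and 23.3% lower. At 1 g/L 4 of 36 rose, where 3.56% of all did. The calls lost at 2 g/L were those of Ndufa6, Ndufa9, Ndufb2, Ndufb11, Ndufs1, Ndufs7 and Ndufv3, and those lost at 3.5 g/L were Ndufa1, Ndufa2, Ndufb3, Ndufs7, Ndufv1 and Ndufv3. The median assembly factor fold became 0.03, 0.02 and 0.03. Under quantile normalization 10, 25 and 30 of 36 subunit genes rose, against 5.26%, 20.8% and 21.9% of all genes.

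The calls at 1 g/L depended on single libraries. Control 3 held the lowest value of the 6 controls in 29 of 36 subunit genes, and library 49 the lowest of the 1 g/L livers in 19 of 36. Control 3 and library 49 also had the lowest and second lowest RPKM summed over the table, 141390 and 141942. With only the 2 doses fitted, 5 of 36 rose at 1 g/L, against 6.59% of all genes, with a pseudocount of 0.1 it was 12 of 36, against 8.87%, and with no filter 8 of 36, against 3.42%. Without control 3, 5 subunit genes rose at 1 g/L, without library 50, 51 or 52 6 rose, and without library 49 17 rose. The share of all genes called in each of these fits was not counted. Whether the subunit genes moved more than other genes in them is thus not known. With control 3 and library 49 both left out, a choice made after the data were seen, 10, 33 and 33 of 36 subunit genes rose at 1, 2 and 3.5 g/L, against 7.17%, 38.9% and 36% of all genes.

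Neighbouring doses were also compared with each other. Between 2 and 1 g/L, 28 of the 44 tested members were called, all higher at 2 g/L, against 22.7% of all genes called higher and 28.4% called in either direction. They were 27 subunit genes and the assembly factor gene Ndufaf5, and the largest steps were 0.57 for Ndufab1, 0.52 for Ndufb8 and 0.43 for Ndufa12. Within the libraries of tag L2, 15 of 44 were called, against 9.01% of all genes. Between 3.5 and 2 g/L limma called 0 of 44 members, against 10.3% of all genes, and at an unadjusted p under 0.05 3 members were higher and 0 lower, where 11.4% of all genes were higher and 14.5% lower. Member folds in that step lay between -0.14 and 0.20. With median-ratio factors or quantile normalization 3 members were called, against 11.6% and 11% of all genes, and in the step from 1 to 2 g/L quantile normalization left 15 calls, against 22.4%. Mean levels rose in the order 0, 1 and 2 g/L in 35 of 36 subunit genes, and 22 had their highest mean at 3.5 g/L and 13 at 2 g/L. The share of all tested genes with these orders was not counted. The median fold of all tested genes was itself higher at 2 g/L (0.12) than at 1 g/L (0.05).

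**Figure D4:**
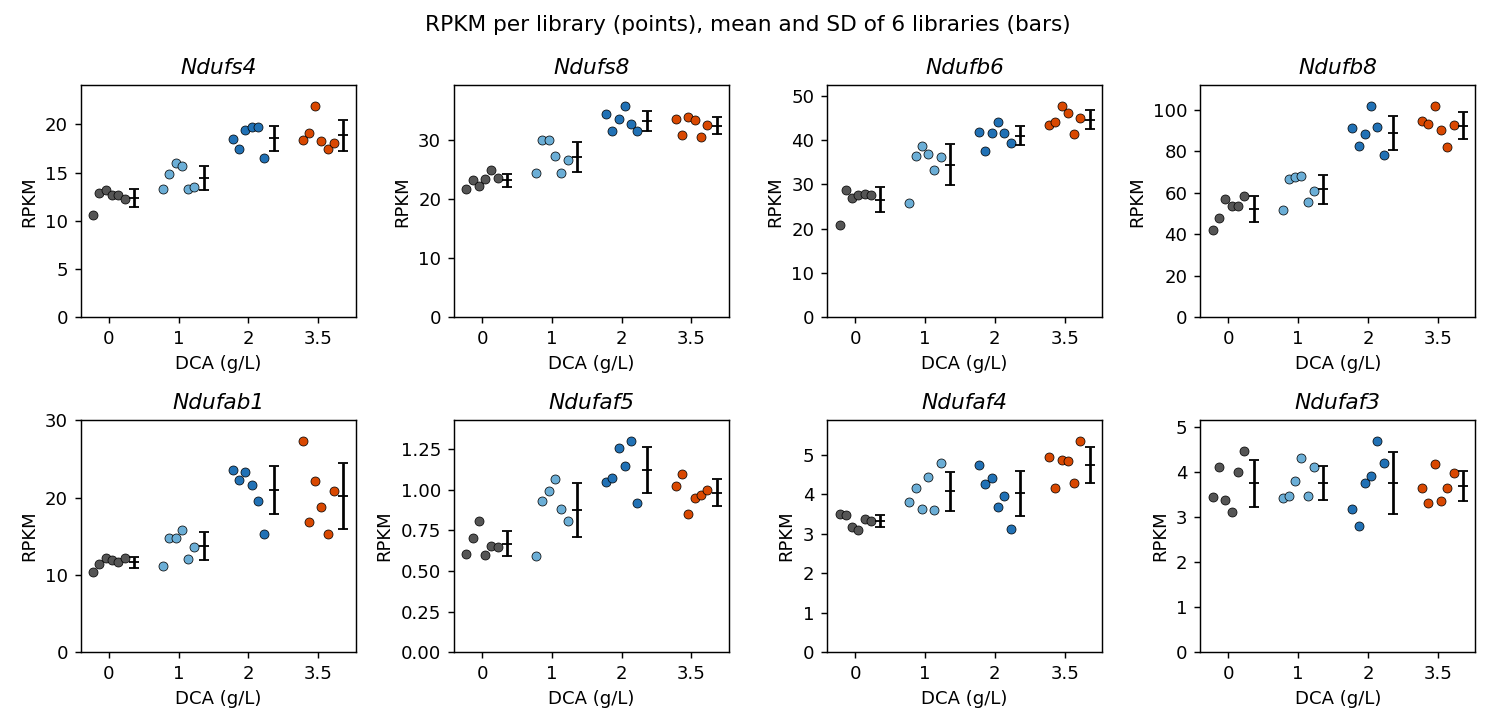
Points are RPKM per library by dose (x axis, g/L) for 8 members, with bars for the mean and SD of 6 libraries. In the subunit genes Ndufs4, Ndufs8, Ndufb6, Ndufb8 and Ndufab1 the 2 and 3.5 g/L livers lie above every control, and in the assembly factor gene Ndufaf3 all doses overlap.

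Among the assembly factors, Ndufaf4, which with Ndufaf3 holds the early Q module, was called at all 3 doses. It had 3.10, 3.34 and 3.49 RPKM in the controls, 3.60, 3.98 and 4.80 at 1 g/L, 3.11, 4.11 and 4.73 at 2 g/L, and 4.17, 4.86 and 5.35 at 3.5 g/L. The 1 and 3.5 g/L livers lay above all controls, and 1 library at 2 g/L fell among them. Its folds were 0.23, 0.21 and 0.41, each ± 0.07 (limma adjusted p 0.0412, 0.0164 and 4.63e-05). At 1 g/L the call was lost with no filter, median-ratio factors, quantile normalization, the tag term or within tag L1. Of the 24 fits that left out 1 library, 9 did not give the same result at 1 g/L. At 2 g/L the call was lost with median-ratio factors (fold 0.07), the tag term (0.10) or without library 73 (0.17).

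Ndufaf5 hydroxylates a residue of Ndufs7 during assembly. It had 0.600, 0.650 and 0.807 RPKM in the controls, 0.592, 0.906 and 1.07 at 1 g/L, 0.917, 1.11 and 1.30 at 2 g/L, and 0.849, 0.984 and 1.1 at 3.5 g/L. Both higher doses lay above the controls, with means 1.68 and 1.47 times the control mean, beside medians of 1.38 and 1.4 over subunit genes. The folds on the log2(RPKM + 1) scale were 0.35 ± 0.06 and 0.25 ± 0.06 (limma adjusted p 2.40e-05 and 7.34e-04). At 1 g/L the fold was 0.17 and not called (0.0544).

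Ndufaf2, the chaperone of the late stage that Ndufa12 replaces, had 2.71, 4.06 and 4.62 RPKM in the controls, 3.19, 3.73 and 5.42 at 1 g/L, 4.15, 4.70 and 5.27 at 2 g/L, and 4.30, 5.06 and 5.40 at 3.5 g/L. The groups overlapped at every dose. It was called at 2 g/L (0.24 ± 0.09, limma adjusted p 0.0333) and 3.5 g/L (0.30 ± 0.09, 0.0107). The first call was lost without control 3 (0.17) and both were lost with median-ratio factors (0.10 and 0.18).

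The other 4 assembly factor genes were called at no dose. Ndufaf1, which builds an early part of the membrane arm with Acad9 and Ecsit, had 7.21, 7.74 and 8.53 RPKM in the controls, 6.87, 8.66 and 9.16 at 1 g/L, 7.52, 9.09 and 9.55 at 2 g/L, and 6.90, 9.41 and 9.85 at 3.5 g/L. Its folds were 0.10, 0.17 and 0.16 (± 0.08), with limma adjusted p 0.416, 0.0643 and 0.086. Ndufaf3, the partner of Ndufaf4 on the Q module, had 3.10, 3.72 and 4.46 RPKM in the controls, 3.41, 3.63 and 4.32 at 1 g/L, 2.81, 3.83 and 4.69 at 2 g/L, and 3.31, 3.65 and 4.18 at 3.5 g/L. Its means were 3.75, 3.76, 3.76 and 3.69 RPKM in order of dose, so that the partner genes Ndufaf3 and Ndufaf4 had folds of -0.02 ± 0.08 and 0.41 ± 0.07 at 3.5 g/L. The difference between the folds was not tested.

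Ndufaf6 had 2.20, 2.32 and 2.78 RPKM in the controls, 2.14, 2.74 and 3.14 at 1 g/L, 2.25, 2.74 and 3.01 at 2 g/L, and 2.13, 2.80 and 3.12 at 3.5 g/L. Ndufaf7, a methyltransferase of early assembly, had 2.09, 2.45 and 2.79 RPKM in the controls, 1.76, 2.27 and 2.79 at 1 g/L, 2.18, 2.71 and 2.97 at 2 g/L, and 1.96, 2.47 and 2.84 at 3.5 g/L. The doses overlapped fully in both. Ndufaf6 had folds of 0.11, 0.11 and 0.14, and Ndufaf7 of -0.07, 0.09 and 0.01, each ± 0.07. Without library 101 at 3.5 g/L, Ndufaf1 (0.22) and Ndufaf6 (0.19) were also called, giving 5 of 7. The share of all genes called without that library was not counted. With the tag as a term, no assembly factor gene was called at 2 g/L.

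Ndufa4, first taken for a complex I subunit and now assigned to cytochrome oxidase, rose at all 3 doses. It had 138, 151 and 157 RPKM in the controls, 151, 181 and 194 at 1 g/L, 176, 196 and 220 at 2 g/L, and 200, 218 and 260 at 3.5 g/L. Its folds were 0.22, 0.40 and 0.57, each ± 0.07 (limma adjusted p 0.0428, 6.48e-05 and 5.23e-07), and the call at 1 g/L was lost without any of several single libraries, control 3 among them. Ndufa4l2, its paralogue known from hypoxia, had means of 0.295, 0.284, 0.245 and 0.358 RPKM in order of dose. At 3 to 15 reads a library a difference was not detectable at this depth.

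Genes of the same pathway and of neighbouring complexes, taken from lists chosen with earlier results of these data known, were set beside the members. Of 15 listed assembly factor genes with other names, only 7 were in the deposited table, and the rest could not be read. Among these 7, 1, 6 and 7 rose at 1, 2 and 3.5 g/L, against 8.35, 41.9 and 38.6% of all tested genes. Their median folds were 0.15, 0.29 and 0.28. They were Acad9 and Ecsit, partners of Ndufaf1, with folds of 0.32 and 0.21 at 3.5 g/L, Foxred1 (0.28), the iron-sulfur carrier Nubpl (0.38), Lyrm2 (0.23), Aifm1 (0.23) and the import factor Chchd4 (0.53). At 3.5 g/L all 7 rose, beside 3 of 7 Ndufaf genes, a difference that was not tested. Of 12 complex IV genes 6, 11 and 11 rose, of 16 complex V genes 6, 16 and 16, and of 77 mitochondrial ribosomal protein genes 18, 72 and 68. The shares of all tested genes given above apply to these counts too. Median folds at 3.5 g/L were 0.51, 0.50 and 0.33 for these 3 lists, beside 0.47 for complex I subunit genes. For complex III with cytochrome c, 4 of 12 listed genes were in the deposited table and 3 were tested, of which 0, 2 and 2 rose. None of 4 complex II genes was in the table.

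Of 11 listed regulators of respiratory genes, 6 were in the deposited table and 5 were tested. Yy1, Ppargc1a, Ppargc1b, Pprc1 and Tfam were not in the table and could not be read, and Esrrg was too low to be tested. Esrra, the oestrogen-related receptor that works with PGC-1 coactivators, averaged 5.35 RPKM at 3.5 g/L and 3.35 RPKM in controls (fold 0.54, limma adjusted p 3.15e-05). At 2 g/L Esrra was not called (fold 0.14, limma adjusted p 0.22). A link between the RNA levels of these regulators and the subunit genes was not tested. Gabpa, an ETS factor known as NRF-2, was called at all 3 doses with folds of 0.19, 0.17 and 0.17. Nrf1 had folds of 0.17, 0.09 and 0.13, called at 1 and 3.5 g/L, and Gabpb1 was called at 2 g/L (0.12). Gabpb2 was not called at any dose (-0.11 at 3.5 g/L).

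**Figure D5:**
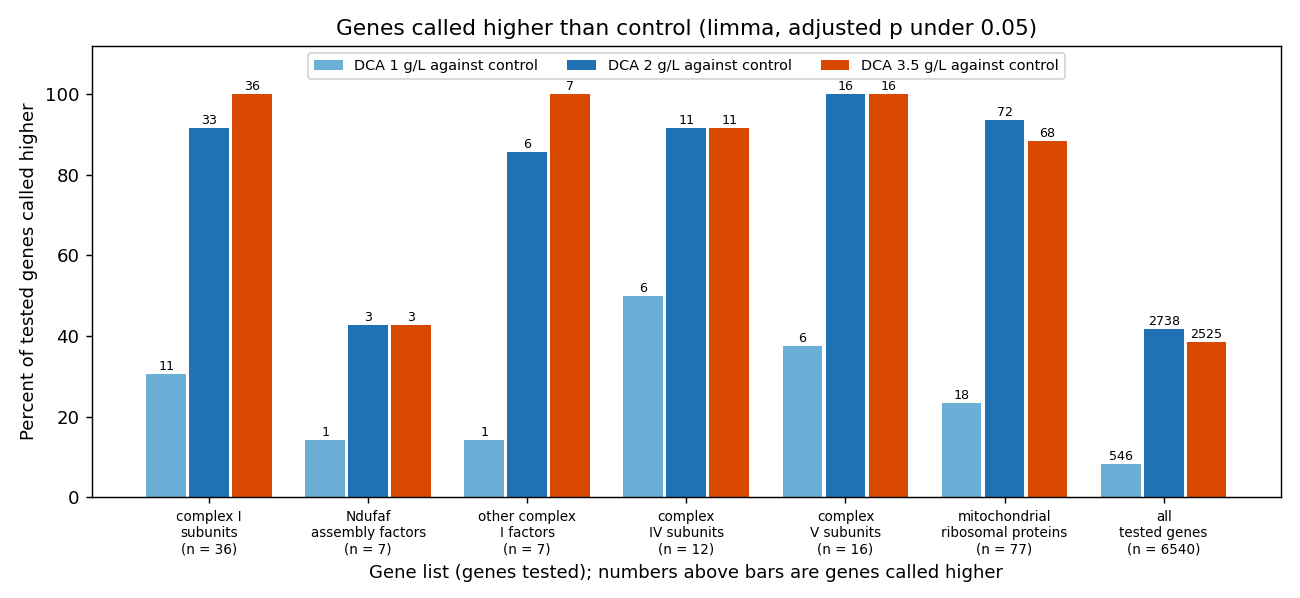
Bars give the percent of tested genes called higher than control (y axis) for complex I subunits, assembly factors, other respiratory lists and all tested genes, at 1, 2 and 3.5 g/L; the number above a bar is the count. The subunit bars stand at 11, 33 and 36 of 36 genes, and the Ndufaf bars at 1, 3 and 3 of 7.

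Most members are short genes: 31 of the 44 tested members fall among the shortest 25% of tested genes by exon length (123 to 2590 bases). In that group 42.1% of genes were higher at 2 g/L and 37.4% at 3.5 g/L, and among the longest 25% of genes 41% and 39.5% were.

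Hepatocyte genes were abundant in every library, and more of them were lower at the higher doses. Their 9 genes summed to 27400 to 34300 RPKM in the controls, 25000 to 30500 at 1 g/L, 20700 to 31100 at 2 g/L and 20900 to 26300 at 3.5 g/L. Of them 1, 6 and 8 fell at the 3 doses, and the other 1 rose at 3.5 g/L. For these and the counts below, 3.03, 10 and 12.9% of all tested genes were lower at the 3 doses. At 3.5 g/L 38.6% of all were higher. Kupffer cell genes summed to 59.2 to 81.7 RPKM at 3.5 g/L and 91.8 to 133 in controls, with 8 of 9 lower at that dose and none called at 1 or 2 g/L. Of 5 erythroid genes 0, 5 and 4 fell, with sums of 154 to 332 RPKM at 2 g/L and 198 to 649 in controls. Sinusoidal endothelial genes summed to 51.5 to 63.4 RPKM over all 24 libraries, and stellate cell genes to 64.6 to 110. Cholangiocyte genes stayed at or under 1.57 RPKM in sum and lymphocyte genes at or under 5.62 RPKM, and no lymphocyte gene was tested. The part of these shifts in the complex I results was not tested. In bulk liver, fewer cells of a type and less RNA per cell cannot be told apart.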

How the data were processed

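RNA-seq libraries were made from frozen liver with ribosomal RNA removed and a stranded kit, per the labels' protocols. Per the submitters' processing notes, the tools were CASAVA, STAR 2.4 and Partek, on the mm10 build. The authors deposited a single table of RPKM values per gene for the 24 libraries; the annotation and the counting rule are not given in the sources used here. Values of 0.0001 stand for 0, and 13 lines with symbols turned into dates and 1 line cut short were left out, leaving 15582 genes. Symbols after the point where the table ends are not analysed here.

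RPKM was transformed to log2(RPKM + 1) and fitted with limma 3.58.1 in R 4.3.3, with 1 mean per dose over all 24 libraries, a trend in the empirical Bayes step, two-sided tests and Benjamini-Hochberg adjustment over 6540 genes with at least 0.5 RPKM in 6 libraries. The fit was run on simulated data with normal noise of the fitted spread. These held no tag effect and no outlying library, so the run cannot show how the fit handles either. Read depth is recoverable only in part from steps in the values: 43 of 45 members gave whole reads within 0.1 of a read in every library, and about 27100000 to 32300000 reads a library follow from 146 genes with a single transcript, so no count model was used. Within a dose, Pearson's r of log2 values between libraries was 0.9832 to 0.9974 over 60 pairs, and no 2 libraries were identical. The labels give 6 libraries a dose and do not say outright that each is a separate mouse, so the p-values measure the spread between these libraries.

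Per-library values are given for the 3 members with the smallest F-test p in each class (all in a class of 3), members called at no dose, any called lower, and Ndufa4 with Ndufa4l2; Ndufa1, Ndufv1 and others were named after their values were seen. A member gene that is counted in the totals is not reported here by name or drawn in the figures. The members, modules and lists were chosen with earlier results of these data known. Gene lists follow textbook structure. Promoters are from RefSeq and exon lengths from GENCODE, both on the mouse GRCm38 build. Alternatives were a pseudocount of 0.1, no filter, a minimum of 1 RPKM in 12 libraries, median-ratio factors, quantile normalization, the title tag as a term, libraries of a single tag, only the doses compared, and leaving out each library.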

Additional observations from a re-analysis of the deposited data

Results flagged for a closer look

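In 11 of 180 groups of 6 libraries, a single library of an Nduf gene stood apart from the rest by Dixon's ratio, the gap to the nearest library over the whole range, with a critical value of 0.625. Chance gives about 1 in 20 such groups. Control 3 was the low library in 6 of the 7 control cases: Ndufb6 (ratio 0.763, 21.0 RPKM with the next at 26.9), Ndufb9 (0.747, 73.5 and 93.7), Ndufa12 (0.667, 23.8 and 30.1), Ndufs4 (0.647, 10.6 and 12.3), Ndufb10 (0.645, 39.8 and 45.4) and Ndufv2 (0.637, 16.5 and 19.1). In Ndufa5, control 4 was high (0.806, 26.5 and 21.0 RPKM). At 2 g/L, library 77 was high in Ndufa6 (0.626, 79.8 and 72.0 RPKM). At 3.5 g/L, library 99 was high in Ndufa1 (0.719, 50.7 and 39.9 RPKM) and Ndufa7 (0.641, 32.0 and 27.1 RPKM), and library 101 was low in Ndufs1 (0.64, 25.9 and 29.3 RPKM).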

How the results depend on the processing

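Counts of subunit genes called higher at 2 g/L (33) and 3.5 g/L (36) stayed within 1.5 times under every alternative run, at 25 to 34 and 30 to 36. For 3.5 g/L these alternatives did not include the tag term or a single tag, because no other dose carries L3. For 2 g/L against control they did not include a single tag, because those libraries share none. At 1 g/L the 11 subunit calls became 4 with median-ratio factors, 2 with the tag as a term, 0 within tag L1 and 5 with only the 2 doses fitted; leaving out 1 library gave 5 to 17. For assembly factors at 1 g/L, the single call became 2 with a pseudocount of 0.1, and 0 with no filter, median-ratio factors, quantile normalization, the tag term or within tag L1, and leaving out 1 library gave 0 to 2. At 2 g/L their 3 calls became 1 with median-ratio factors, 1 with quantile normalization and 0 with the tag term, and leaving out 1 library gave 1 to 4; at 3.5 g/L it gave 3 to 5. The 0 genes called lower at 2 g/L became 1 with quantile normalization. Between 2 and 1 g/L the 28 calls became 15 with quantile normalization and 15 within tag L2 (23 to 29 without 1 library), and between 3.5 and 2 g/L 0 became 3 with median-ratio factors and also 3 with quantile normalization (0 to 1 without 1 library). Shares of all genes were not counted in the fits without 1 library, and the cause of these changes was not tested.

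Signs changed for some values. Among subunit genes at 2 g/L, Ndufa1 (0.07) became -0.10 with median-ratio factors and -0.11 under quantile normalization, Ndufa2 (0.16) became -0.01 under either, and Ndufv1 (0.06) became -0.11 and -0.12; at 3.5 g/L Ndufv1 (0.15) became -0.02 under quantile normalization, and at 1 g/L Ndufs7 (-0.01) became 0.05 with the tag term. The median assembly factor fold at 2 g/L became -0.01 with quantile normalization. Under the same normalization Ndufaf1 became -0.01 and -0.03 at 2 and 3.5 g/L. Ndufaf2 at 1 g/L became -0.04 under either rescaling (median-ratio or quantile), -0.06 with the tag term and within tag L1, -0.01 without control 3 and library 49 together, and -0.06 to 0.06 without 1 library. Ndufaf3 at 1 g/L became -0.05 in the first 4 of these, and without 1 library it ran -0.03 to 0.05 at 1 g/L, -0.06 to 0.06 at 2 g/L and -0.06 to 0.03 at 3.5 g/L. Ndufaf6 at 2 g/L became -0.02 (median-ratio factors) and -0.01 (quantile normalization, and the tag term). Ndufaf7 became -0.04 and -0.03 at 2 g/L and -0.09 and -0.09 at 3.5 g/L with those scalings, and -0.02 to 0.06 at 3.5 g/L without 1 library. No paired analysis was possible because the doses share no replicate numbers. Depth limits Ndufaf5 (44 to 103 reads a library) and Ndufa4l2 (3 to 15 reads) most among the members.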
